A study of Mus musculus with 8 samples.

Results

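In a stretch of mouse chromosome 16 just distal to Sod1, 10 genes from Scaf4 to Cryzl1 were followed in the hippocampus of Ts1Cje and wild-type mice. Other genes of this stretch lie among the 10 and are given as neighbours. In chromosome order the 10 are Scaf4, Hunk, Urb1, Cfap298, Paxbp1, Tmem50b, Gart, Son, Donson and Cryzl1. They were chosen by position, as genes that Ts1Cje mice carry in 3 copies and wild-type mice in 2. Not every gene of the stretch was taken, and earlier results of these data were known at the choice. Every non-control probe whose RefSeq accession belongs to any of the 10 was used. This gave 10 of 20660 named genes and 15 of the 55681 probes on the array. RNA came from hippocampus of 3-month-old mice, labelled C57BL6/J in both groups, on 8 one-colour arrays: 4 Ts1Cje and 4 wild-type littermate controls. Ts1Cje mice model Down syndrome: a translocated extra copy of distal chromosome 16, from Sod1 onward, is present in their cells. The model is limited in that this extra Sod1 is disrupted and that 1 chromosome 12 lacks its distal tip as a result of the translocation. The sex of the mice and the number of mice behind each RNA sample are not stated in the labels, and the arrays were taken as separate mice. Because whole tissue was measured, fewer cells of a type and less RNA per cell cannot be told apart.

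With an extra copy of a gene and no compensation, transcript rises in proportion to copy number, which for 3 copies over 2 is 1.5-fold, or 0.585 on the log2 scale. Genes of this block are mostly broadly expressed and serve basic cell functions. Scaf4 and Son act on RNA processing, Gart makes purines, Donson serves DNA replication, Urb1 ribosome assembly, Cfap298 the motile cilium, and Hunk is a protein kinase.

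All 15 probes were well above background on all 8 arrays, so that none was lost to the filter on dim probes, and 32587 probes of the array were kept in all. Levels are given as log2 of the processed signal minus the 75th percentile of the same array, so that 0 is the brightness below which 75 of every 100 probes lie. Between 59.9% and 63.1% of probes were well above background per array. All 5 neuronal and all 7 hippocampal marker genes checked were above background on all 8 arrays. The same held for all 5 neocortex and all 5 choroid plexus markers, so detection does not single out the hippocampus. Sod1 itself averaged 7.11 over the Ts1Cje arrays and 6.34 over the others (log2 difference 0.77, SE 0.05, limma adjusted p = 0.00521). Because its translocated copy is disrupted, this value does not check the copy number.

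All 15 probes were higher in Ts1Cje on average, and 6 of them, from 5 genes, passed the test (limma over all 32587 kept probes, Benjamini-Hochberg adjusted p under 0.05). Those genes were Cfap298, Tmem50b, Son, Donson and Cryzl1, the last with both of its probes. None was called lower. Over all kept probes 0.169% were called higher and 0.0184% lower, or 0.187% in either direction. For 14 of the 15 probes, every Ts1Cje array lay above every wild-type array, which held for 2.41% of all kept probes (the groups stood apart in either direction for 6.00%), and Scaf4 was the exception. The median log2 difference was 0.51, or 1.42-fold, against -0.01 over all kept probes, and the differences ranged from 0.12 (Scaf4) to 0.67 (Donson). The 78 other kept probes from Sod1 to the end of chromosome 16 had a median of 0.51 with 31 called higher, and the 549 kept probes of chromosome 16 proximal to Sod1 had a median of -0.02, with 0 called higher and 1 lower in limma (43 at an unadjusted p under 0.05).

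The calls are less stable than the direction. Leaving out Ts1Cje replicate 2, 3 or 4 left 0 of the 15 probes past the threshold in limma, although 14 had an unadjusted p under 0.05 in each case, and leaving out wild-type replicate 1 or 4 left 3. Testing all 55681 probes without the filter also left 0 (14 unadjusted). So did replicate number as a block (15 unadjusted), though no label states that a shared number means littermates. In the other direction, both Hunk probes, both Paxbp1 probes, Urb1 and Gart, which did not pass as reported, passed in 1 to 3 of the settings normexp, array weights and a trended and robust prior (lowest limma adjusted p from 0.0121 for Hunk to 0.0260 for Gart and 0.0315 for Paxbp1). The median difference stayed between 0.49 and 0.52 in the 8 settings that leave out an array.

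**Figure D1:**
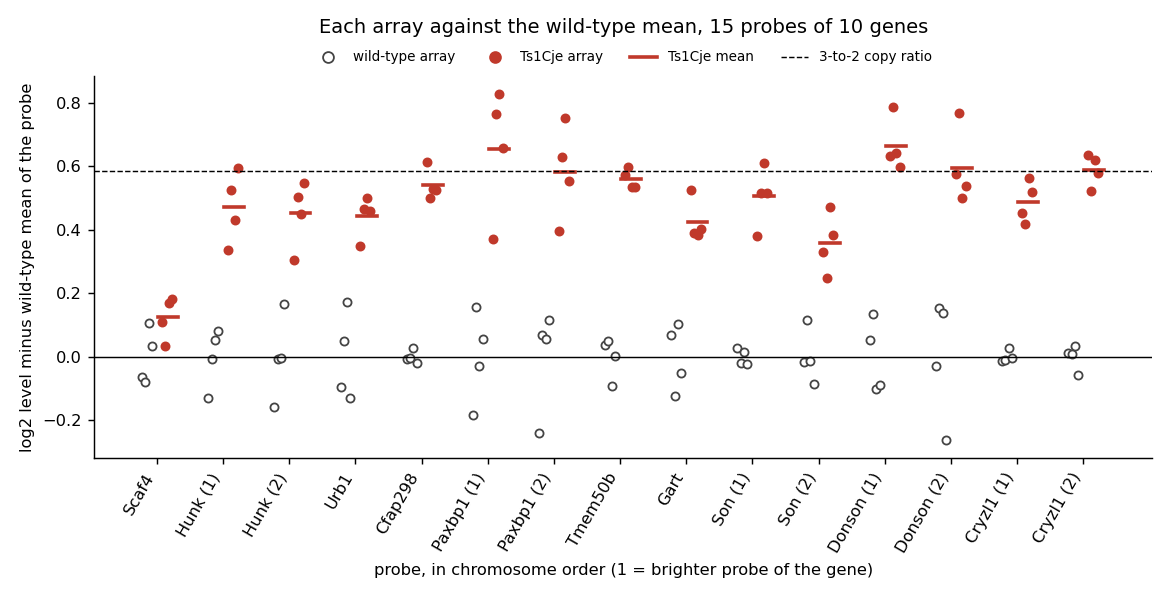
Log2 level of each array minus the wild-type mean of the same probe (vertical axis) for the 15 probes in chromosome order, with wild-type arrays as open points, Ts1Cje arrays as filled points, Ts1Cje means as bars and the 3-to-2 copy ratio (0.585) as a dashed line. Ts1Cje arrays lie above all wild-type arrays for 14 probes and overlap them for Scaf4.

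**Figure D2:**
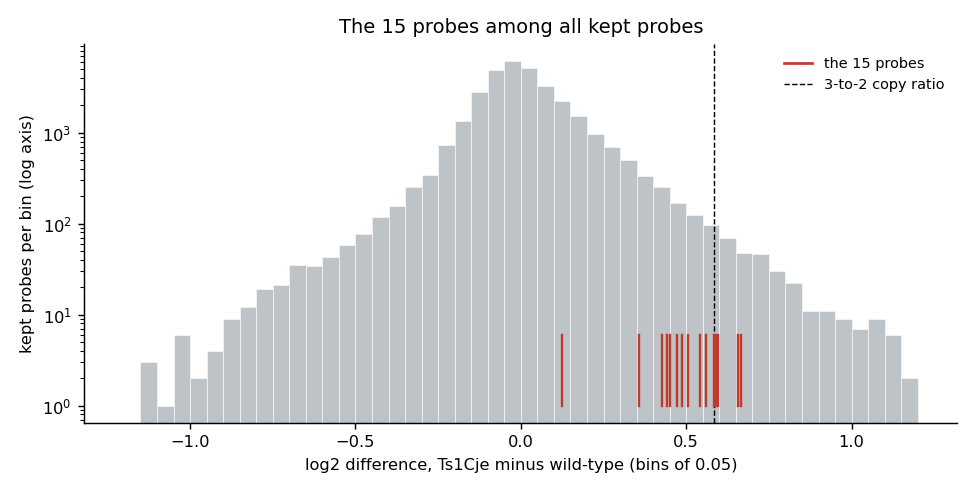
Number of kept probes (log axis) by log2 difference, Ts1Cje minus wild-type, in bins of 0.05 from -1.2 to 1.2, which leaves out 26 of 32587 probes. Red ticks mark the 15 probes. Of these, 14 lie between 0.36 and 0.67, on both sides of the dashed 3-to-2 copy ratio, and Scaf4 lies at 0.12.

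Promoter sequences of 4 of the genes are shown because they contrast the gene whose groups overlap (Scaf4), the gene with the largest difference (Donson) and the neighbours Gart and Son, which are read in opposite directions from start sites 852 bases apart. Each is the 250 bases before the start site, 5′ to 3′ on the strand of the gene, from RefSeq on GRCm38.p6, and all 10 genes had an entry. Capitals mark matches on either strand to 6 motifs. These are the GC box core GGGCGG, the CCAAT box, the ETS core CCGGAA, the TATA box TATAAA, the NRF1 core CGCATGC and the YY1 core AAGATGG. Where matches overlap they are shown as 1 run of capitals.
Scaf4, chr16:90284504-90284753, minus strand: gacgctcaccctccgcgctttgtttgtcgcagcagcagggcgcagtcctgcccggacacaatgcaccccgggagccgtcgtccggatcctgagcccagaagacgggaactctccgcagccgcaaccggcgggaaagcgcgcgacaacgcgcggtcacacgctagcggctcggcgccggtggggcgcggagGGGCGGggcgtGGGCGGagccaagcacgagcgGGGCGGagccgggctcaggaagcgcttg
Gart, chr16:91646973-91647222, minus strand: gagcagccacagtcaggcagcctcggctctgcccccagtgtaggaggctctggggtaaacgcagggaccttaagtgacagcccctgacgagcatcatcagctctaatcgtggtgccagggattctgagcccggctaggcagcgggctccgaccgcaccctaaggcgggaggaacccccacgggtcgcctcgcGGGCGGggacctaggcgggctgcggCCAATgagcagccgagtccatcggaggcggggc
Son, chr16:91647574-91647823, plus strand: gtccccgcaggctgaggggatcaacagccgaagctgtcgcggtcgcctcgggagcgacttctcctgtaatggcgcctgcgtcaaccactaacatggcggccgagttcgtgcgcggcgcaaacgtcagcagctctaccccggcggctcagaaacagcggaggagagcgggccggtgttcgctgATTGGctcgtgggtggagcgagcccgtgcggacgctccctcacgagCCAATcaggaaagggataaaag
Donson, chr16:91688729-91688978, minus strand: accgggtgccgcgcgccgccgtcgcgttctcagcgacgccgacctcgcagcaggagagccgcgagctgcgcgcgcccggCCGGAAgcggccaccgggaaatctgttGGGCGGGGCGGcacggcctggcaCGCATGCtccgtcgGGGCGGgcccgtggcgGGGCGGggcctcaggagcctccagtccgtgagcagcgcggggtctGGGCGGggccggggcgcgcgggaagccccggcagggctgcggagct
Matches to GGGCGG were found before 7 of the 10 genes, against 32.9% of 27025 promoters of the same length. The promoter of Scaf4 holds 3 matches and that of Donson 5, while that of Son holds 0. Son instead holds 2 matches to CCAAT, which was before 3 of the 10 genes and 34.5% of all promoters, and Gart holds 1 match to each of these motifs. CCGGAA stood before Donson and Cfap298 (12.2% of all promoters), CGCATGC before Donson and Paxbp1 (3.07%), AAGATGG before Cryzl1 (4.53%), and TATAAA before 0 of the 10 (13.0%). Guanine and cytosine made up 46.0% (Cryzl1) to 79.6% (Donson) of these windows, with a median of 52.0% over all promoters. Letters that match a motif are a description of the sequence, and binding there was not measured.

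**Figure D3:**
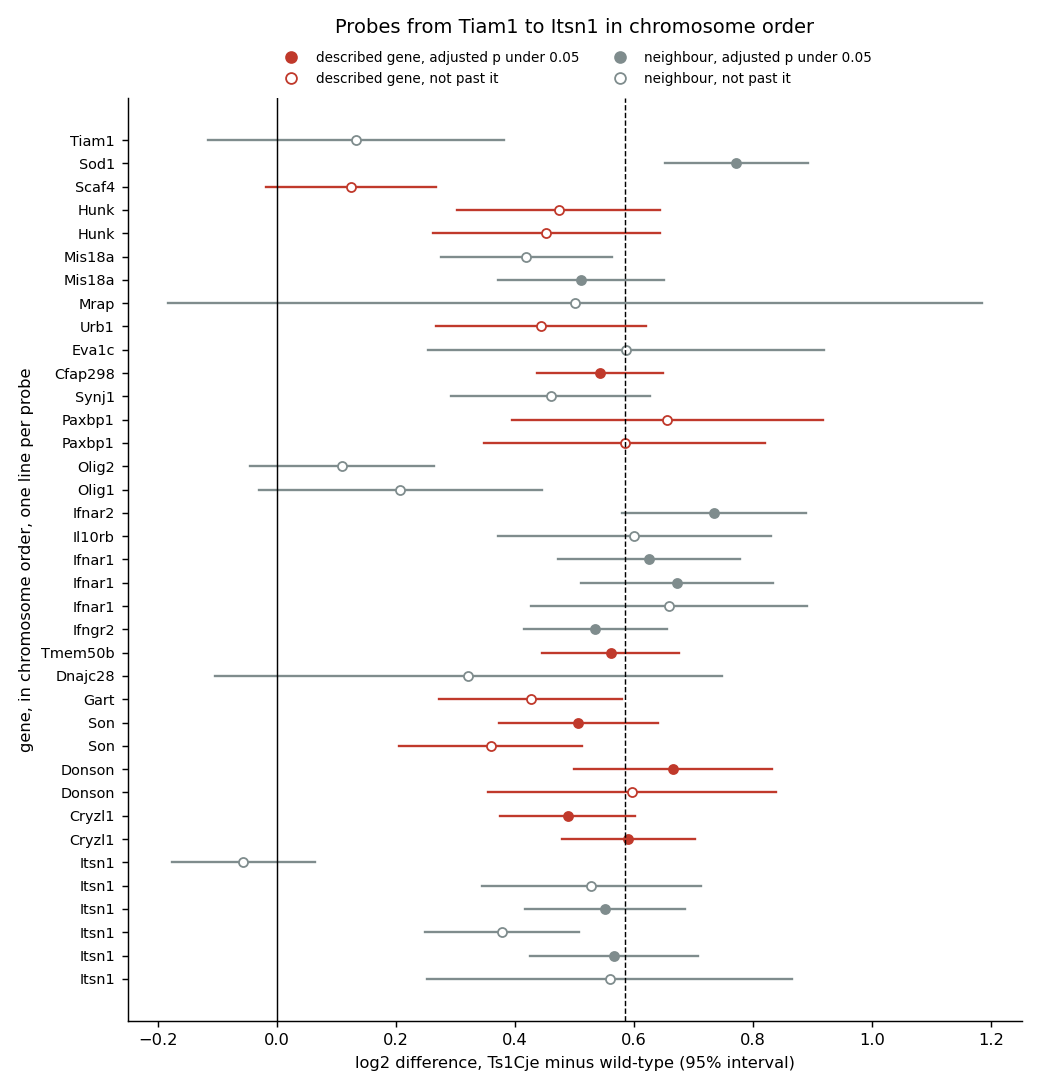
Log2 difference, Ts1Cje minus wild-type, with its 95% interval for the kept probes of protein-coding genes from Tiam1 to Itsn1 in chromosome order, the 10 genes in red and their neighbours in grey, filled where the adjusted p is under 0.05; the solid line is 0 and the dashed line the 3-to-2 copy ratio. The Itsn1 probe with an SE over 0.5 is not drawn. From Hunk to Cryzl1 each interval of the red genes lies above 0, and 12 of the 15 hold the dashed line.

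Scaf4, at the proximal end, encodes a protein that binds the tail of RNA polymerase II and restrains early transcript termination. Its Ts1Cje arrays read 1.01, 0.94, 1.07 and 1.09 in replicates 1 to 4, and its wild-type arrays 0.84, 0.82, 1.01 and 0.94. The groups overlap: Ts1Cje replicate 2 lay below wild-type replicate 3. The difference was 0.12 (SE 0.06, 95% interval -0.02 to 0.27, limma adjusted p = 0.627), so that its interval held 0 and lay below the 3-to-2 ratio. Scaf4 has 1 probe, so whether another part of the transcript gives the same value was not measured. It lies between Sod1 and Hunk, both of which stood higher in every Ts1Cje array. Tiam1, just outside the extra segment on the proximal side, stood at 0.13 (SE 0.11) with overlapping groups. Over 19 alternative settings the difference of Scaf4 ranged from 0.07 to 0.16. Scaf4 passed in 0 of them (lowest limma adjusted p 0.408, unadjusted p = 0.0792 as reported). Its unadjusted limma p was under 0.05 with quantile normalization, with array weights and without wild-type replicate 3. The same held with replicate number or slide row as a block, so whether its interval holds 0 depends on the setting.

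Hunk encodes a serine/threonine kinase related to AMP-activated protein kinase. On its brighter probe the Ts1Cje arrays read 3.19, 3.37, 3.28 and 3.45 and the wild-type arrays 2.72, 2.84, 2.90 and 2.93. The groups do not overlap, and replicate 1 was the lowest array of both groups. That probe differed by 0.47 (SE 0.07, limma adjusted p = 0.0717) and the other by 0.45 (SE 0.08, adjusted p = 0.119), so that neither passed, although both intervals (0.30 to 0.64 and 0.26 to 0.64) lay above 0 and held the 3-to-2 ratio.

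Urb1, next in order after Mis18a and Mrap, encodes a nucleolar protein of large ribosomal subunit assembly. Ts1Cje arrays read -0.69, -0.57, -0.53 and -0.58, against -1.13, -0.98, -0.86 and -1.16 in wild type. No arrays overlap between the groups, with a gap of 0.18 between the lowest Ts1Cje and the highest wild-type array. The difference of 0.44 (SE 0.08, interval 0.27 to 0.62) did not pass over all probes (limma adjusted p = 0.0985).

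Cfap298 encodes a cytoplasmic factor needed to assemble the dynein arms of motile cilia. It read 4.24, 4.12, 4.15 and 4.15 in Ts1Cje and 3.62, 3.62, 3.65 and 3.61 in wild type. The wild-type arrays were nearly equal (SD 0.02, n = 4), and the gap to the lowest Ts1Cje array was 0.47. It rose 1.46-fold (95% interval 1.35 to 1.57, log2 difference 0.54, SE 0.05, limma adjusted p = 0.00981). The call was lost without Ts1Cje replicate 2, 3 or 4, with adjusted p between 0.0583 and 0.0652. Markers of ependymal cells, which carry motile cilia, had other values: all 6 were above background, 5 were below 0 with a median of -0.32, 0 passed in limma (3 at an unadjusted p under 0.05), and their summed level ranged from 7.46 to 9.33 in Ts1Cje and from 8.53 to 10.8 in wild type. Their part in the result was not tested.

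Paxbp1 encodes a nuclear protein that binds the transcription factors PAX3 and PAX7. On its brighter probe the Ts1Cje arrays read 0.76, 1.16, 1.22 and 1.05 and the wild-type arrays 0.21, 0.55, 0.36 and 0.45. On the other probe they read 0.14, 0.37, 0.50 and 0.30 against -0.50, -0.19, -0.20 and -0.14. Replicate 1 was the lowest array of both groups on both probes, and the groups do not overlap on either. Among the 15 probes the brighter one had the largest SE (difference 0.66, SE 0.11) and the other stood at 0.58 (SE 0.10), and neither passed (limma adjusted p = 0.0985 and 0.104), while the smaller difference of Cfap298 did.

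Between Paxbp1 and Tmem50b lie Olig2, Olig1 and 4 receptor genes. The oligodendrocyte transcription factor genes Olig2 (0.11, SE 0.07) and Olig1 (0.21, SE 0.10) had overlapping groups, as Scaf4 did, whereas Ifnar2 (0.73, SE 0.07), Il10rb (0.60, SE 0.10), the 3 probes of Ifnar1 (0.63 to 0.67) and Ifngr2 (0.53, SE 0.05) stood apart. In all, 15 kept probes belong to genes other than the 10 between Scaf4 and Cryzl1. Their median was also 0.51, 10 of them stood apart between the groups and 5 passed.

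Tmem50b, past the receptor genes, encodes a small membrane protein of the endoplasmic reticulum and Golgi. It read 5.06, 5.08, 5.02 and 5.02 in Ts1Cje and 4.52, 4.54, 4.39 and 4.49 in wild type. The Ts1Cje arrays were within 0.06 of each other and lay 0.48 above the highest wild-type array. Tmem50b rose 1.48-fold (95% interval 1.36 to 1.60, log2 difference 0.56, SE 0.05, limma adjusted p = 0.0105). Without Ts1Cje replicate 2, 3 or 4 it missed the threshold (adjusted p 0.0585 to 0.0652). The next gene, Dnajc28, stood at 0.32 with a wide SE of 0.19 and overlapping groups.

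Gart encodes an enzyme that catalyses several steps of purine synthesis. Ts1Cje arrays read 0.36, 0.22, 0.22 and 0.24, against -0.10, -0.29, -0.07 and -0.22 in wild type. The groups are apart by 0.28, and Ts1Cje replicate 1 stands above the 3 others of its group. The difference of 0.43 (SE 0.07, limma adjusted p = 0.0710) did not pass, and its interval of 0.27 to 0.58 lay above 0 and just below the 3-to-2 ratio.

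Son, read from the other side of the interval shared with Gart, encodes a large protein of nuclear speckles needed for splicing. The probe for transcript NM_178880 read 4.40, 4.54, 4.63 and 4.54 in Ts1Cje and 4.05, 4.00, 4.04 and 4.00 in wild type. The probe for NM_019973 read -1.37, -1.45, -1.23 and -1.32 against -1.72, -1.58, -1.71 and -1.79. Neither probe has overlapping groups. The first rose 1.42-fold (log2 difference 0.51, SE 0.06, limma adjusted p = 0.0193) and the second stood at 0.36 (SE 0.07, adjusted p = 0.126), with an interval of 0.20 to 0.51 that lay below the 3-to-2 ratio. The gap of 0.15 between these changes (SE 0.06) did not separate the groups (two-sided exact permutation p = 0.0571 over 70 assignments, adjusted over the 5 genes with 2 probes 0.143). Of the calls described here that of Son was the most easily lost: it passed without Ts1Cje replicate 1 and in none of the other 7 settings that leave out an array (adjusted p 0.0518 to 0.0981), and it also missed with the array median as centre (0.0627).

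Donson encodes a protein of the replication fork that takes part in loading the replicative helicase. Its brighter probe read 2.17, 2.33, 2.18 and 2.14 in Ts1Cje and 1.59, 1.68, 1.44 and 1.45 in wild type. On the dimmer probe the values were -1.02, -0.82, -1.09 and -1.05 against -1.62, -1.44, -1.45 and -1.85. Both probes separate the groups, and on both Ts1Cje replicate 2 is the highest array. The brighter probe gave 1.59-fold (95% interval 1.41 to 1.78, log2 difference 0.67, SE 0.07, limma adjusted p = 0.0149) and the dimmer 1.51-fold (log2 difference 0.60, SE 0.11, adjusted p = 0.106). The call on the brighter probe was lost without any 1 of the Ts1Cje arrays or wild-type replicate 1 or 4 (adjusted p 0.0540 to 0.0764). Markers of dividing cells, in which replication genes are active, and of newborn cells were read together. Of 5 tested, 4 were below 0 with a median of -0.16, and 0 passed in limma (0 at an unadjusted p under 0.05). Their summed level ranged from 1.54 to 1.87 in Ts1Cje and from 1.70 to 2.21 in wild type. Their part in the result was not tested.

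Cryzl1, the most distal of the 10, encodes a protein related to quinone oxidoreductases. On the brighter probe the Ts1Cje arrays read 2.42, 2.39, 2.53 and 2.49 and the wild-type arrays 1.95, 1.96, 1.99 and 1.96. On the other probe they read 1.96, 1.85, 1.95 and 1.91 against 1.34, 1.34, 1.36 and 1.27. The groups are apart by 0.39 and 0.49, with SDs of 0.02 to 0.06 within groups. Both rose, by 1.40-fold (log2 difference 0.49, SE 0.05, limma adjusted p = 0.0118) and 1.51-fold (0.59, SE 0.05, adjusted p = 0.00981). The call of the brighter probe was lost without Ts1Cje replicate 2, 3 or 4 or wild-type replicate 1, 2 or 4 (adjusted p 0.0585 to 0.0696) and with the array median as centre (0.0627), and that of the other without Ts1Cje replicate 2, 3 or 4 (0.0558 to 0.0652). The brighter probe changed less than the other on the same arrays, by 0.10 (SE 0.03). This was the only one of the 5 pairs of probes whose difference separated the groups. Its two-sided exact permutation p was 0.0286, which no arrangement of 70 can go below. Adjusted over the pairs this p was 0.143, and 1 pair alone at that floor cannot get under 0.05 when so adjusted. Itsn1, the next gene, has 7 kept probes: its brightest stood at -0.06 (SE 0.05) with overlapping groups, and 5 of the others stood apart at 0.38 to 0.57.

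The changes of the remaining pairs differed between probes by 0.02 (SE 0.03) for Hunk, 0.07 (SE 0.06) for Paxbp1 and 0.07 (SE 0.09) for Donson, with exact permutation p of 0.657, 0.200 and 0.571. These p-values do not show that the probes act alike.

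Against the copy ratio, the 95% intervals of 12 of the 15 probes held 0.585, where 10.5% of all kept probes have an interval that holds it. Those 12 also excluded 0, and the share of all kept probes that meet both conditions was not counted. Taken alone, 0 was held by 1 of the 15 intervals and by 29837 of the 32587 of all kept probes. The intervals of Gart, of the NM_019973 probe of Son and of Scaf4 lay below the ratio, and none lay above it. Of these 3, Scaf4 alone held 0 in the fit as reported. The estimates of 4 probes, both of Donson, 1 of Paxbp1 and 1 of Cryzl1, were over the ratio. Whether a probe passed went with its spread as well as its size: the 6 called probes had an SE of 0.05 to 0.07, and the 8 that stood apart without passing 0.07 to 0.11, with adjusted p from 0.0710 to 0.126. The median SE over all kept probes was 0.09.

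**Figure D4:**
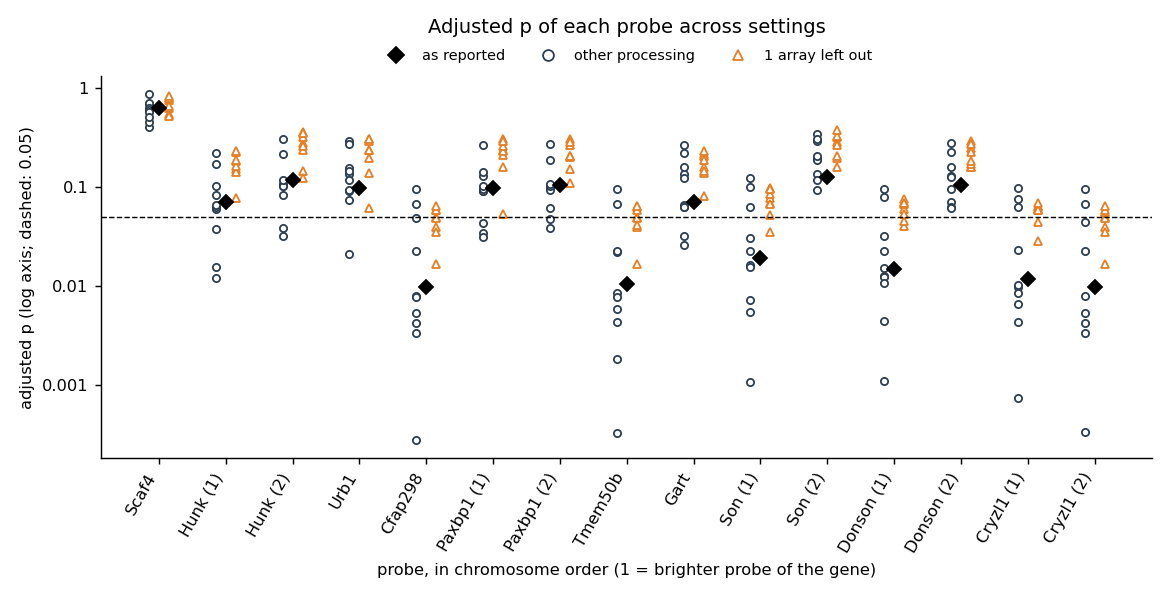
Adjusted p (log axis) of each of the 15 probes as reported (diamonds), with other processing (circles) and with 1 array left out (triangles); the dashed line is 0.05. Scaf4 stays above the line throughout, as do Son (2) and Donson (2). Each of the other 12 probes lies below it in some settings and above it in others.

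Of the Ts1Cje arrays, replicate 1 was raised the least. Over the 15 probes the median height above the wild-type mean was 0.40 in Ts1Cje replicate 1, 0.52 in replicate 2, 0.53 in replicate 3 and 0.53 in replicate 4, and between -0.02 and 0.03 in the wild-type arrays. Replicate 1 was the lowest Ts1Cje array for 6 of the probes and the highest for 3, among them Cfap298 and Gart.

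Genes elsewhere in the genome that work with or resemble the 10 were listed by function. Of 98 such genes, 91 were tested on their brightest kept probe, 0 passed in limma and 9 had an unadjusted p under 0.05, where 8.44% of all kept probes had one. Their median log2 difference was -0.02, against -0.01 over all kept probes. The difference was above 0 for 36 of the 91, and for 47.7% of all kept probes. Of the 91 intervals, 89 lay below the 3-to-2 ratio, as did 29155 of the 32587 of all kept probes. Among 10 enzymes of purine synthesis, which share the pathway of Gart, 5 were above 0, the median was -0.0018 and the smallest p was that of Pfas (-0.20, SE 0.07, limma adjusted p = 0.533). Of 14 replication fork genes, partners of Donson, 9 were below 0 with a median of -0.02, and the helicase subunit gene Mcm7 stood at -0.17 (SE 0.07, adjusted p = 0.548). Of 13 SR splicing factor genes, which like Son act in nuclear speckles, 12 were below 0 with a median of -0.05, and 1 had an unadjusted p under 0.05, Tra2b, which stood at -0.32 (SE 0.11, limma adjusted p = 0.506).

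For Scaf4, 7 relatives that bind the polymerase tail had a median of 0.01, with Rprd1a at -0.08 (SE 0.05, limma adjusted p = 0.691). Among 15 kinases related to AMP-activated protein kinase, beside Hunk, 8 were above 0 with a median of 0.01. Of these, Sik1, an activity-induced kinase gene, stood at -0.38 (SE 0.11, limma adjusted p = 0.390). The 10 genes of large ribosomal subunit assembly tested beside Urb1 lay between -0.07 and 0.07, and Ddx51 had the smallest p of them (adjusted p = 0.784). Of 9 dynein arm assembly genes tested beside Cfap298, 7 were below 0 with a median of -0.09, and Dnaaf3 stood at -0.24 (SE 0.11, adjusted p = 0.606). Of 5 genes tested as relatives or partners of Paxbp1, 4 were below 0, and its relative Gcfc2 stood at -0.17 (SE 0.05, adjusted p = 0.429). Tmem50a, the relative of Tmem50b, stood at -0.05 (limma adjusted p = 0.826). Of 7 oxidoreductase genes related to Cryzl1, 5 were above 0, and Ptgr1 stood at 0.43 (SE 0.17, adjusted p = 0.542).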

How the data were processed

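Per the file headers, Agilent Feature Extraction 10.10.1.1 read the spots, and the deposited values are linear intensities: a processed signal, background corrected and not normalized between arrays, and median spot and local background signals. All 8 arrays lay on 1 slide in 1 scan. Slide columns 1 and 3 held wild-type and 2 and 4 Ts1Cje arrays; effects of column and of genotype cannot be told apart.

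Outlier-flagged spots were dropped. The log2 processed signal was averaged per probe and the 75th percentile of the array subtracted. A probe was kept where either group had it well above background on all 4 arrays. RefSeq accessions were named through a table of GRCm38.p6 (27235 probes matched). The probes were designed on mm9, and positions are printed for the promoter windows alone, on GRCm38.p6.

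The comparison used limma 3.58.1 under R 4.3.3 (lmFit, eBayes, no block), adjusted by Benjamini-Hochberg over all kept probes; intervals are moderated 95% intervals. On simulated data of 32587 probes with independent normal noise, 200 were changed, 100 by 1.5-fold and 100 by 2-fold, in both directions. Of the 1.5-fold changes 59.0% were recovered and of the 2-fold changes 84.0%, with 14 false calls. These shares depend on that mix of changes, which need not be that of the arrays. Fold changes are in the fit's log2 intensity scale. Named were all 10 members, those neighbours from Tiam1 to Itsn1 that a member is set beside, and the smallest p of each partner list. Pairs of probes were compared with an exact permutation test. The members and lists were chosen with earlier results of these data known. Alternatives are given in the closing section. Python 3.11.15 with pandas 2.3.3 and matplotlib 3.10.9 made tables and plots.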

Additional observations from a re-analysis of the deposited data

Results flagged for a closer look

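Of 30 sets of 4 arrays examined (15 probes in both groups), 2 held an array far from the 3 others, where 1.5 are expected by chance. On the dimmer probe of Paxbp1, wild-type replicate 1 stood at -0.50 and the others between -0.20 and -0.14. For Gart, Ts1Cje replicate 1 stood at 0.36 and the others between 0.22 and 0.24.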

How the results depend on the processing

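All 10 genes kept a positive log2 difference in all 19 settings run on them, and the median over the 15 probes moved by less than its spread between Ts1Cje arrays in the 18 run on it. The count of 6 called probes was 10 with normexp, 10 with array weights, 11 with a trended and robust prior, 10 at adjusted p under 0.1, 2 at 0.01, 0 with no filter on dim probes (14 unadjusted), and 0 to 5 with 1 array left out. The total of 61 called probes (55 higher) was 32 with the array median as centre, 3 with no filter, 102 with array weights, 133 at 0.1, 7 at 0.01, and 1 to 51 with 1 array left out. As 1 row per gene averaged over probes, 7 of 10 intervals held the 3-to-2 ratio. The pairs that separated the groups numbered 2 with normexp and 1 to 2 with 1 array left out. Normexp ran on median signals. The cause of these moves was not tested, and the number of arrays limits all values.

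With the replicate number as a block, 0 of the 15 probes passed in limma (15 unadjusted), and 1 of all probes. Deviations from the group means correlated between equal numbers with r of 0.22, 0.19, 0.11 and 0.07, across probes that are not independent, and each Ts1Cje array correlated best with its own number. Not every r exceeded 0.1 and no label states that a shared number means littermates, so the numbers were not taken as pairs. With slide row as a block 6 passed.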
